A study of Mus musculus with 6 samples.

Results

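Cartilage owes its resistance to compression to aggrecan, and the genes described here encode aggrecan and 7 other non-collagen components of the cartilage matrix: Acan, Hapln1, Comp, Matn1, Matn3, Lect1 (now Cnmd), 3110079O15Rik (now Snorc) and Prg4. These 8 genes were chosen by name, and 7 of them had a row among the 10189 genes of the deposited table. Matn1, which encodes matrilin-1 and lies on chromosome 4 at 130944385 to 130955475 (mm10, plus strand), has no row and was not analysed here. RNA-seq was done on cultured primary chondrocytes of C57BL/6 mice aged 5 weeks. The 3 miR-34a KO libraries came from global homozygous knockouts (MiR-34a -/-, allele Mir34atm1.2 Mrl), and the 3 wild-type (WT) libraries from wild-type mice whose labels list the same model nomenclature. Knee and hip articular cartilage was pooled and digested with collagenase, and the released cells were grown untreated in medium with 10% serum before RNA was taken. Whether a genotype's libraries stand for different animals or cultures is not stated in the labels, so the spread behind each p-value is that of these libraries alone and may be technical.

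Aggrecan is a very large proteoglycan whose sulfated sugar chains draw water into the tissue. Many aggrecan molecules bind 1 strand of hyaluronan, and link protein, the product of Hapln1, locks each of them in place. COMP and the matrilins are adaptor proteins that tie collagen fibrils to other matrix proteins, chondromodulin (Lect1) keeps vessels out of cartilage, and lubricin (Prg4) coats the joint surface. Chondrocytes grown flat on plastic are known to lose much of this programme.

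Values are TMM-normalized CPM, read counts divided by an effective library size, from which whole reads were recovered (989217 to 5266617 per library). In WT 1, 59.1% of reads lay on the ribosomal RNA precursor Rn45s. Outside Rn45s, Lars2 and Mir6236, between 947081 and 1772185 reads were left per library, with KO 1 deepest. Cartilage identity was checked on 6 collagen genes of chondrocytes, all of them detected in every library, whose summed level was 2402 to 3841 CPM in KO and 1641 to 2282 CPM in WT. Markers of other cells were also detected: 14 macrophage and leukocyte markers summed to 1068 to 15463 CPM in KO and to 5434 to 6343 CPM in WT, and none of them was at 0 in any library. Of the 10 mural markers 8 had a row, and they summed to 278 to 512 CPM in KO and 597 to 767 CPM in WT. Of the 6 endothelial markers 2 had a row (Pecam1 and Cdh5), summing to 0 to 43.6 CPM in KO and 11.3 to 34.0 CPM in WT. In bulk RNA, fewer cells of a type and less RNA per cell cannot be told apart.

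The comparison asked which genes differ in chondrocytes that lack miR-34a. MicroRNAs bind messenger RNAs mainly through their seed, so the sequence is shown with the seed (bases 2 to 8) in capitals, beside the 2 places where a member's 3′ untranslated region (3′ UTR) pairs with bases 2 to 7. The capitals of both sites mark those 6 paired bases. The miRNA is from RefSeq (mm10, chr4:150068473-150068494, plus strand), and the sites are from GENCODE M21 transcripts at chr13:89611210-89611237 (plus strand) and chr14:79637930-79637957 (minus strand).
miR-34a-5p: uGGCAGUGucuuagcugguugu
Hapln1 site: atgtcattgctcaagACTGCCagcacag
Lect1 site: agttcatctatcaggACTGCCaagcaag
In both sites the base after the capitals is an a, opposite base 1 of the miRNA. None of the 8 genes held a match to bases 2 to 8 in its longest annotated 3′ UTR, or in any of its annotated 3′ UTRs. Of 9640 genes of the table with a 3′ UTR, 19.2% held a match to bases 2 to 8 (21.5% in any annotated 3′ UTR) and 37.8% held one to bases 2 to 7. A match is a description of letters and not evidence of binding. Hapln1 has the longest 3′ UTR of the 8 (3503 bases), while that of Lect1 has 272 bases.

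Of the 7 measured genes, 6 had a higher mean log2 level in KO (51.4% of all genes did), and 4 of them, Acan, Hapln1, Comp and Lect1, had an unadjusted limma p below 0.05 (4.64% of all genes were higher at that level). The same 4 genes were below 0.05 unadjusted with edgeR and with DESeq2, as 4.57% and 4.26% of all genes were in the higher direction. The lowest of the 6 libraries was a WT library for 6 of the 7 genes, Matn3 being the exception, and for 47.9% of all genes. The median log2 fold change of the 7 genes was 1.03, against 0.02 over all genes. A higher level in KO was not particular to them. The 6 chondrocyte collagens were all higher in KO, with a median log2 fold change of 0.78. Of these collagens 3 (Col9a2, Col9a3 and Col11a2) had an unadjusted limma p below 0.05, and DESeq2 called Col11a2 (adjusted p = 0.000363). Col9a3 shares 234 exon bases with opposite-strand Tcfl5. None of the 7 passed limma at an adjusted p below 0.05, a level that 0% of all genes passed in the higher direction and 0.00981% in the lower direction. With edgeR and limma-voom on the recovered reads, 0 of the 7 also passed (0% of all genes each in the higher direction). The 2 genes called by edgeR and the 1 called by limma-voom were lower in KO. DESeq2 gave an adjusted p to 4056 genes, but not to Matn3 or 3110079O15Rik. With DESeq2, Acan passed. Of the 4056 genes, 0.666% passed in the higher direction and 2% in the lower direction. The fold changes below are KO over WT on the log2(CPM + 0.5) scale, on which values of genes with few reads depend on the 0.5 added. They have limma standard errors and p-values adjusted by Benjamini-Hochberg over all genes.

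**Figure D1:**
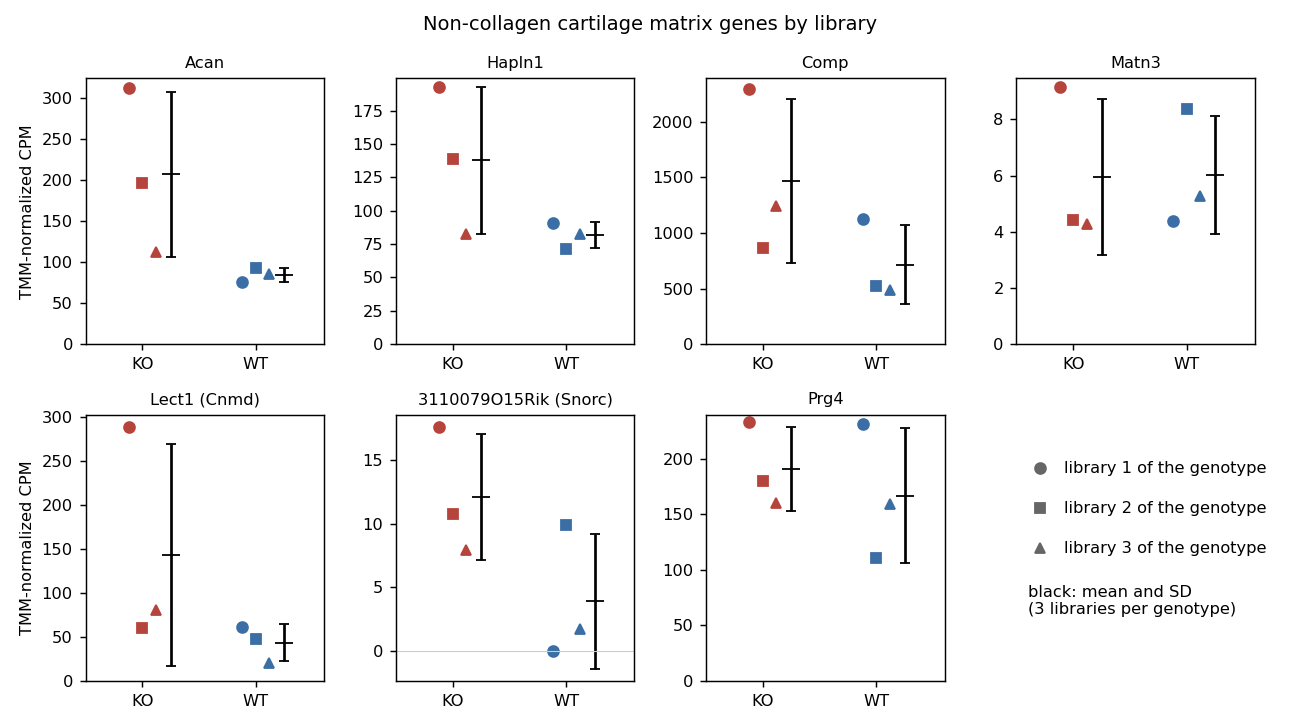
TMM-normalized CPM (vertical axis, linear) of the 7 measured genes in each KO (red) and WT (blue) library, with the mean and SD of 3 libraries in black. KO 1 is the highest point of every panel, and Acan is the gene whose KO points all lie above its WT points.

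Acan encodes the aggrecan core protein and lies on chromosome 7 at 79053483 to 79115099 (mm10, plus strand). It had 312, 197 and 112 CPM in KO libraries 1, 2 and 3, against 75.4, 92.9 and 85.6 CPM in WT libraries 1, 2 and 3. The 3 WT libraries were close to each other, the 3 KO libraries were spread 2.79-fold from lowest to highest, and the groups did not overlap. Every KO library lay above every WT library for 8.82% of all genes. Its log2 fold change was 1.17 (SE 0.33, 95% interval 0.42 to 1.92, limma adjusted p = 0.283), or 2.25-fold. DESeq2 on the recovered reads gave 1.31 and an adjusted p of 0.0181. Adjusted p-values over the 20 alternatives ran from 0.0181 to 0.599, and the DESeq2 value was the 1 below 0.05. Without KO 1, the log2 fold change was 0.81.

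Hapln1, the link protein gene, lies on chromosome 13 at 89539796 to 89611652 (plus strand). It had 193, 139 and 82.6 CPM in KO libraries 1, 2 and 3 and 91.1, 71.6 and 82.7 CPM in WT libraries 1, 2 and 3. KO 1 and KO 2 lay above all WT libraries, while KO 3 lay among them. The log2 fold change was 0.67 (SE 0.30, 95% interval 0.01 to 1.34, limma adjusted p = 0.449), and 0.39 without KO 1.

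Acan and Hapln1 were the pair of members whose levels over the 6 libraries were most alike, with a root mean square difference of 0.32 between their centred log2 profiles (0.37 to 1.91 for the other 20 pairs). Their products act in 1 complex, so their ratio was taken within each library, which no scaling between libraries can change. It was chosen after the values were seen and is given with no test. Per kilobase of exon, Acan over Hapln1 was 1.28, 1.12 and 1.07 in KO 1, KO 2 and KO 3, against 0.654, 1.03 and 0.818 in WT 1, WT 2 and WT 3. The ratio was higher in each KO library than in any WT library, with a log2 difference of 0.49. The gap between KO 3 and WT 2 was narrow and rests on few reads. Acan and Hapln1 had 183 and 135 reads in KO 3 and 122 and 94 reads in WT 2. Whether counting error spans this gap was not tested. Of the 21 ratios between 2 members, 3 had no overlap between the genotypes.

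Their promoters are printed because these are the 2 most alike members. Each is the RefSeq window of 250 bases before to 50 after the start (mm10, plus strand). It is chr7:79052976-79053275 for Acan and chr13:89540386-89540685 for Hapln1. RefSeq and GENCODE place these starts differently. The Acan window ends before the GENCODE start of the gene (79053483). The Hapln1 window lies inside the GENCODE gene, which starts at 89539796. What follows holds for these windows only. Capitals mark GC boxes (GGGCGG) and cores bound by SOX factors (ACAAT or ACAAAG), each searched on both strands together with the TATA box (TATAAA).
Acan promoter: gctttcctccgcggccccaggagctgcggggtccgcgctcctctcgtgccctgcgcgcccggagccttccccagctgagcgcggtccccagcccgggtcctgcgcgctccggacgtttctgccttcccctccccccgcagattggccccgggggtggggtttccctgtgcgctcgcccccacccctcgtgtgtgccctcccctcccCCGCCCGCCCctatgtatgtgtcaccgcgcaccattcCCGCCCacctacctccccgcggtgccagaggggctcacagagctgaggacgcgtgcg
Hapln1 promoter: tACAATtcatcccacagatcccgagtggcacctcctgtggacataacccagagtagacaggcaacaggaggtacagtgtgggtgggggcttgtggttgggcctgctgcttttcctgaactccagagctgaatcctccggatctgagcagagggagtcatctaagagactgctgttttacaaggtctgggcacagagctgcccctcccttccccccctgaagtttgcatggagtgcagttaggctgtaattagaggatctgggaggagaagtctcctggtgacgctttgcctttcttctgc
The 2 windows differ in composition: 74.0% of bases were G or C in Acan and 54.3% in Hapln1, against a median of 52.7% over 32851 promoters. Acan held 3 GC boxes, 2 of which overlap, and Hapln1 held 0. Matn3 also held 3, Matn1 held 1 and Lect1 0, and 35.7% of all promoters held at least 1. The SOX core was found in Hapln1 alone among the 5 members with a listed promoter, and in 42.9% of all promoters. A TATA box was found in none of the 5 and in 13.6% of all promoters. Comp, 3110079O15Rik and Prg4 have no sequence shown.

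Comp encodes cartilage oligomeric matrix protein, a pentameric thrombospondin that binds collagen fibrils, and lies on chromosome 8 at 70373558 to 70382066 (plus strand). It had 2293, 863 and 1245 CPM in KO libraries 1, 2 and 3 and 1122, 527 and 489 CPM in WT libraries 1, 2 and 3. WT 1 lay above KO 2, so the groups overlapped. The log2 fold change was 1.03 (SE 0.41, 95% interval 0.12 to 1.94, limma adjusted p = 0.402). It was 0.65 without KO 1, and 1.41 without WT 1.

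The matrilin gene with a row, Matn3, lies on chromosome 12 at 8947929 to 8972028 (plus strand). It was near the lower limit of the table, with 24, 9 and 7 reads in KO 1, KO 2 and KO 3 and 7, 11 and 9 reads in WT 1, WT 2 and WT 3. The corresponding levels were 9.16, 4.41 and 4.28 CPM in KO and 4.40, 8.38 and 5.28 CPM in WT. KO 1 and WT 2 were high and the other 4 libraries low. The log2 fold change was −0.05 (SE 0.69), and its 95% interval of −1.59 to 1.49 holds changes of more than 2-fold in either direction, so that no difference was detectable at this depth.

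Lect1 encodes chondromodulin, a membrane protein whose released part inhibits vessel growth, and lies on chromosome 14 at 79637690 to 79662170 (minus strand). It varied most among KO libraries of the 7 genes, with 288, 60.3 and 80.7 CPM in KO libraries 1, 2 and 3, against 61.6, 48.0 and 20.5 CPM in WT libraries 1, 2 and 3. KO 1 stood 4.78-fold above KO 2, and KO 2 lay just under WT 1. The log2 fold change was 1.498 (SE 0.58, 95% interval 0.19 to 2.80, limma adjusted p = 0.397). It was 0.82 without KO 1 and 1.04 without WT 3.

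3110079O15Rik (Snorc), the gene of a small transmembrane proteoglycan of cartilage, lies on chromosome 1 at 87470271 to 87475482 (plus strand). It was counted with 46, 22 and 13 reads in KO 1, KO 2 and KO 3, against 0, 13 and 3 reads in WT 1, WT 2 and WT 3. These reads correspond to 17.6, 10.8 and 7.95 CPM in KO and to 0, 9.90 and 1.76 CPM in WT. All KO libraries held the transcript, whereas WT 2 lay among the KO libraries and WT 1 had none. With so few reads the log2 fold change of 2.40 (SE 1.13, 95% interval −0.14 to 4.93, limma adjusted p = 0.473) moved with the pseudocount, to 1.599 at a pseudocount of 2 and 3.23 at 0.1. It was 1.31 without WT 1 and 3.50 without WT 2. On the recovered reads it was 1.69 with edgeR, 1.69 with DESeq2 and 2.90 with limma-voom.

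Prg4 encodes lubricin, made by cells of the cartilage surface and the synovial lining, and lies on chromosome 1 at 150449412 to 150466165 (minus strand). It had 233, 180.3 and 160.3 CPM in KO libraries 1, 2 and 3 and 231, 110.5 and 159 CPM in WT libraries 1, 2 and 3. The groups overlapped, and KO 1 and WT 1 were level. Its log2 fold change of 0.24 had an SE of 0.28 (limma adjusted p = 0.752) and a 95% interval of −0.39 to 0.87, which leaves out a doubling. It was −0.02 without WT 2. Prg4 was the 1 member with an opposite-strand gene over its exons: 204 of its exon bases overlap Tpr, a nuclear pore gene. The sources used here give no strand setting for the counting, and without strand the reads of this overlap cannot be told apart. Tpr had 478 ± 13.5 CPM in KO and 579 ± 171 CPM in WT (SD, n = 3 each). The other 7 members have no such overlap. Of 10 fibroblast and synovial markers 9 had a row, none at 0 in any library, and they summed to 6409 to 8949 CPM in KO and 7729 to 9624 CPM in WT. Of these 9, 5 were lower in KO and 1, Lum, was higher with an unadjusted limma p under 0.05. Of 5 tendon markers 3 had a row (Mkx at 0 in some libraries), with sums of 39.3 to 75.9 CPM in KO and 21.3 to 89.8 CPM in WT. The part of these cells in the levels of Prg4 and Comp was not tested.

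**Figure D2:**
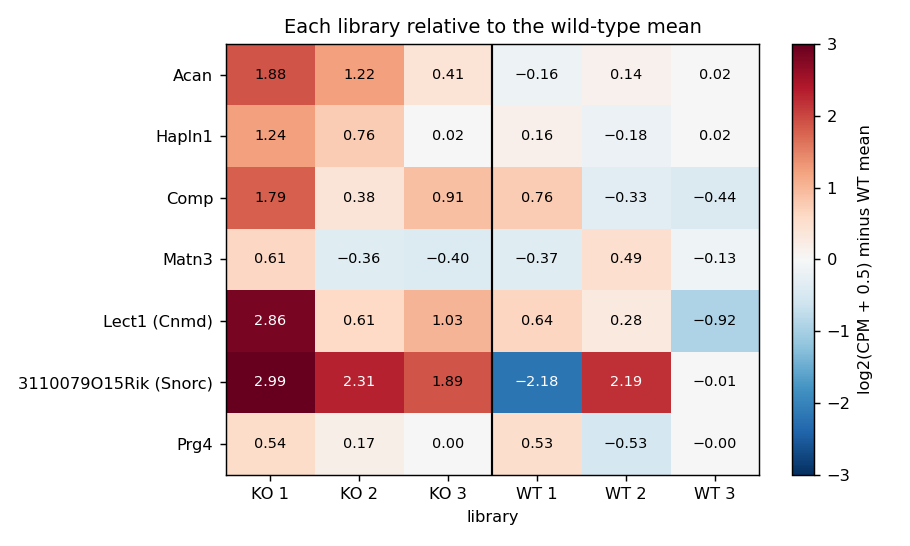
Difference of each library from the WT mean on the log2(CPM + 0.5) scale, by gene (rows) and library (columns), red for higher and blue for lower. The KO 1 column is red in every row, from 0.54 for Prg4 to 2.99 for 3110079O15Rik, and the KO 2 and KO 3 columns are nearer to 0 in every row, with Matn3 below it.

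KO 1 carried much of the difference. It was the highest of the 6 libraries for 7 of the 7 genes, while 20.7% of all genes were highest there. The 7 genes together made up 0.495%, 0.211% and 0.244% of the reads of KO 1, KO 2 and KO 3 outside Rn45s, Lars2 and Mir6236. In WT 1, WT 2 and WT 3 they made up 0.223%, 0.120% and 0.117%. By this measure KO 2 lay just below WT 1, but Comp alone gave most of these reads (1762 of 2969 in KO 2, 1786 of 2524 in WT 1). The median log2 difference of the 7 genes from the WT mean was 0.61 in KO 2 and 0.16 in WT 1. KO 1 also had the highest summed level of chondrocyte collagens (3841 CPM, against 2402 and 2432 CPM in the other KO libraries) and the lowest of macrophage markers (1068 CPM). KO 2 had the highest sum of macrophage markers (15463 CPM), of which Lyz2 alone had 12165 CPM. Of the 14 macrophage markers 12 had a lower mean log2 level in KO and 2 a higher one, while 51.4% of all genes were higher. Mrc1 was lower at an unadjusted limma p below 0.05 (DESeq2 adjusted p = 0.0237). Of 8 osteoblast markers 6 had a row, and all 6 had a higher mean log2 level in KO, 2 of them (Ibsp and Bglap2) at an unadjusted limma p below 0.05. Their sum was 6685 to 19916 CPM in KO and 5298 to 7349 CPM in WT, highest in KO 2, where Spp1 alone had 17015 CPM. Without Spp1, a sum added after the values were seen, the other 5 markers had 3879, 2901 and 3854 CPM in KO libraries 1, 2 and 3, against 1028, 1954 and 609 CPM in WT libraries 1, 2 and 3. Each KO library thus lay above each WT library, but Ibsp made up most of this sum. Ibsp alone had 3620, 2628 and 3614 CPM in KO libraries 1, 2 and 3, against 858, 1659 and 526 CPM in WT libraries 1, 2 and 3. Alpl and Sp7 overlapped between the genotypes. Ibsp, the bone sialoprotein gene, had 3287 ± 571 CPM in KO and 1014 ± 582 CPM in WT (SD, n = 3 each; limma adjusted p = 0.238, DESeq2 adjusted p = 0.000497). Bglap and Bglap2, the osteocalcin genes, were at 4.89 to 12.2 CPM in KO and at 0 in all WT libraries. Without WT reads, both could enter a table of filtered genes only through KO, so their direction was fixed in advance. The part of macrophages and osteoblasts in the matrix gene levels was not tested. Without KO 1, 6 of the 7 genes were still higher in KO, and 1 of them, Acan, kept an unadjusted limma p below 0.05. The count at that level was also 1, Acan again, without WT 3. Acan was below 0.05 in each of the 20 alternatives run, Lect1 in 16, Comp in 14 and Hapln1 in 10 of 20. Summed mural markers (above) and proliferation markers were lower in each KO library than in any WT library. Of the 8 mural markers 6 had a lower mean log2 level in KO, while 2, Cspg4 and Pdgfrb, had a higher one. Cspg4 had 40.7 ± 16.4 CPM in KO and 17.6 ± 2.43 CPM in WT (SD, n = 3 each), with no overlap. The 7 proliferation markers summed to 770.2 to 1070.5 CPM in KO and to 1477 to 1742 CPM in WT, and their part in the matrix genes was not tested either.

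**Figure D3:**
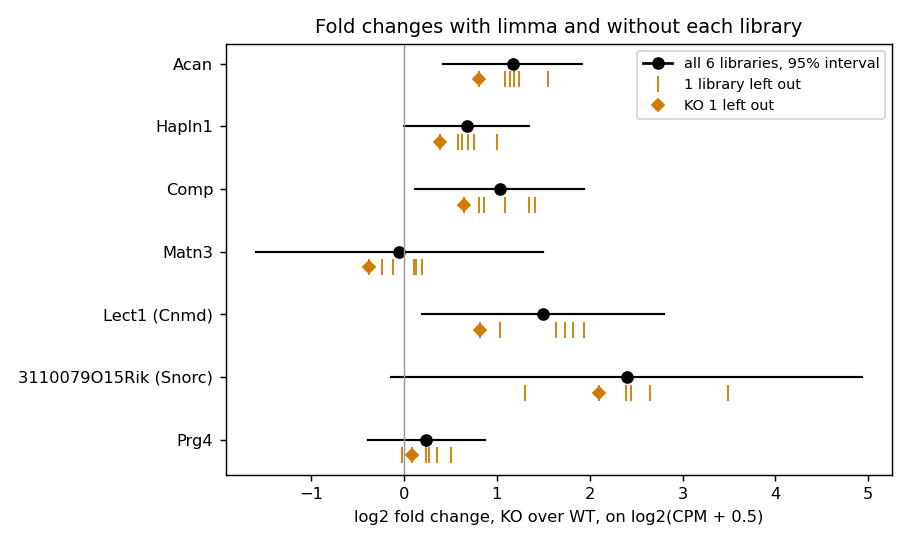
Log2 fold change (KO over WT) of the 7 genes with its 95% interval from limma (black) and with 1 library left out (orange ticks, KO 1 as a diamond). The diamond is the lowest orange mark for Acan, Hapln1, Comp, Matn3 and Lect1, and the value of Acan stays between 0.81 and 1.55.

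Levels between genes were compared per kilobase of exon. In KO, Comp had 494 ± 250 CPM per kilobase (SD, n = 3), Lect1 77.6 ± 68.4, Prg4 44.7 ± 8.80, Acan 27.7 ± 13.5, Hapln1 23.4 ± 9.33, 3110079O15Rik 16.8 ± 6.84 and Matn3 1.97 ± 0.92. In WT, Comp had 240 ± 120 CPM per kilobase, Prg4 39.0 ± 14.2, Lect1 23.5 ± 11.3, Hapln1 13.9 ± 1.66, Acan 11.3 ± 1.2, 3110079O15Rik 5.38 ± 7.32 and Matn3 2.00 ± 0.69. Comp was highest and did not overlap any other gene in either genotype. Lect1 and Prg4, and likewise Acan, Hapln1 and 3110079O15Rik, overlapped their neighbours in KO. Matn3 was lowest on average, and its values overlapped those of 3110079O15Rik in WT but not in KO.

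Ratios to Prg4 within a library asked whether the other genes differed by more than lubricin did. The log2 ratio of Acan to Prg4 averaged 0.01 ± 0.48 in KO and −0.92 ± 0.68 in WT (SD, n = 3 each). That of Comp averaged 2.83 ± 0.53 in KO and 2.05 ± 0.38 in WT, and that of Lect1 −0.75 ± 0.96 in KO and −2.01 ± 0.87 in WT. Each of the 6 ratios overlapped between the genotypes. The exact two-sided permutation p was 0.2 for Acan, Comp and Lect1 (adjusted p = 0.4 over the 6 ratios) and 0.3 to 0.8 for the others. The smallest p that 3 against 3 libraries can give is 0.1, so these ratios could not pass 0.05.

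Among the partners of aggrecan in the hyaluronan network, levels went both ways, with more genes lower than higher. Of 12 listed genes 7 had a row, 2 higher and 5 lower in KO by their mean log2 level (51.4% of all genes were higher). Their median log2 fold change was −0.44. Vcan and Has3 had lower levels in KO with an unadjusted limma p under 0.05 (as had 6.4% of all genes). None passed limma or DESeq2 after adjustment. Vcan encodes versican, the aggrecan relative of fibroblasts and of immature cartilage. It had 60.3, 199 and 73.4 CPM in KO libraries 1, 2 and 3, against 204, 196 and 515 CPM in WT libraries 1, 2 and 3. KO 2 lay among the WT libraries. The difference was −1.51 on the log2 scale (SE 0.49, limma adjusted p = 0.323), and −1.05 without WT 3, where the unadjusted p was 0.0555. Fibroblast markers that were lower in KO beside it (unadjusted limma p under 0.05) were Col1a1, Col3a1, Fbn1, Postn and Tnc, 5 of 9 measured, named after their values were seen. Fbn1, which encodes fibrillin-1, had a log2 fold change of −1.87 with an SE of 0.32 (DESeq2 adjusted p = 2.69e-05) and shares 2442 exon bases with opposite-strand Gm9913. Col3a1, a fibrillar collagen gene, had −0.93 with an SE of 0.26 (DESeq2 adjusted p = 0.00757). The other 4 of the 9, Lum, Dcn, Pdpn and Col1a2, had higher mean log2 levels in KO. Their log2 fold changes were 0.92, 0.50, 0.35 and 0.19. For Lum, the lumican gene, the SE was 0.25 (DESeq2 adjusted p = 0.0203). The part of fibroblasts in the level of Vcan was not tested. Has3, a hyaluronan synthase gene, had a log2 fold change of −0.81 with an SE of 0.24 (limma adjusted p = 0.294). Its KO libraries lay below its WT libraries without overlap, as for 9.57% of all genes, and it shares 704 exon bases with opposite-strand Chtf8. The hyaluronan receptor genes Cd44 and Hmmr had 0.24 (SE 0.23) and −0.44 (SE 0.24). Layn, another receptor gene, named after its values were seen, had 0.68 (SE 0.31, limma adjusted p = 0.455). Its KO libraries lay above its WT libraries without overlap, as for 8.82% of all genes.

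The ratio of Acan to Vcan, 2 lecticans whose balance is used as a sign of the chondrocyte state, was also taken within each library after the values were seen and has no test. Per kilobase of exon it was 10.0, 1.91 and 2.95 in KO 1, KO 2 and KO 3, against 0.717, 0.919 and 0.322 in WT 1, WT 2 and WT 3. By this measure Acan was above Vcan in each KO library and below it in each WT library. That order depends on the exon lengths used, 7.47 kb for Acan and 14.5 kb for Vcan. In CPM, KO 2 had 197 for Acan and 199 for Vcan. The lack of overlap between the genotypes does not depend on these lengths. The log2 difference of the ratio between KO and WT was 2.68, and 1.99 without KO 1.

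**Figure D4:**
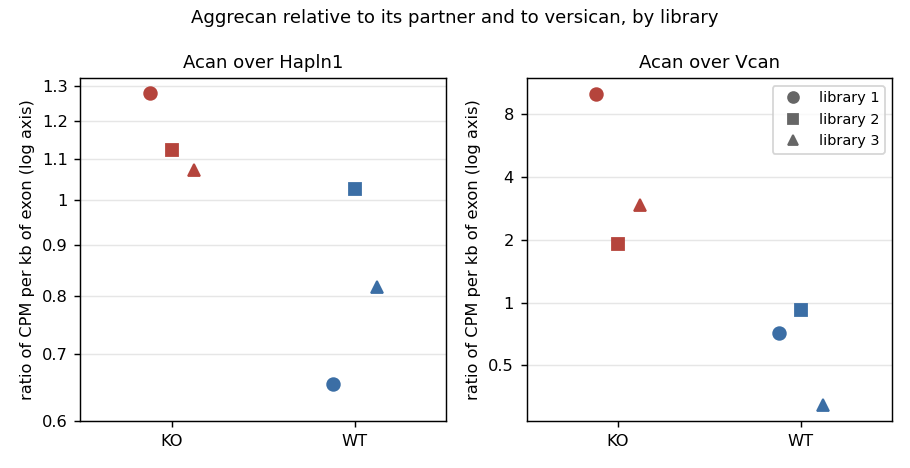
Ratio of CPM per kilobase of exon (log axes) of Acan to Hapln1 (left) and of Acan to Vcan (right) in each KO (red) and WT (blue) library. Acan over Vcan lies between 1.91 and 10.0 in KO and between 0.322 and 0.919 in WT, with no overlap in either panel. In the left panel KO 3 (1.07) and WT 2 (1.03) lie close together.

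The relatives of COMP and the matrilins showed smaller differences. Of 6 listed genes 5 had a row, with a median log2 fold change of 0.14, and none had an unadjusted limma p below 0.05. Thbs1, which encodes thrombospondin-1, had 4900.0 ± 923 CPM in KO and 3676 ± 529 CPM in WT (SD, n = 3 each), a log2 fold change of 0.41 (SE 0.26). Thbs2, Matn2 and Thbs4 had −0.02 (SE 0.20), 0.16 (SE 0.26) and 0.02 (SE 0.68), and each of the 3 turned sign under at least 1 alternative. Thbs1 and Matn2 share 208 and 70 exon bases with opposite-strand genes.

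Other non-collagen matrix genes went both ways. Of 20 listed genes 16 had a row, 11 higher and 5 lower (51.4% of all genes were higher). Their median log2 fold change was 0.43. Mgp, Susd5, Smoc2 and Chadl were higher and Fibin and Ecm2 lower at an unadjusted limma p below 0.05 (4.64% and 6.4% of all genes). After adjustment limma called none, while DESeq2 called Smoc2 higher (adjusted p = 0.0468) and Fibin lower (adjusted p = 0.0328). Of the 4056 genes to which DESeq2 gave an adjusted p, 0.666% were called higher and 2% lower. Smoc2, Chadl and Ecm2 are named after their values were seen. Mgp, which encodes matrix Gla protein, an inhibitor of calcification, had 252 ± 75.8 CPM in KO and 151 ± 83.2 CPM in WT. Susd5 had a log2 fold change of 0.95 (SE 0.27), and Fibin had −1.20 (SE 0.32), both with no overlap between groups. Cilp, which encodes cartilage intermediate layer protein, had −0.22 (SE 0.74), and its sign turned under 5 alternatives. Chadl shares 1023 exon bases with opposite-strand L3mbtl2.

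Genes that act on aggrecan and COMP after secretion included proteases, their inhibitors and hyaluronan-degrading proteins. Of 18 listed genes 15 had a row, 8 higher and 7 lower (51.4% of all genes were higher). Mmp13, Timp2 and Cemip were higher and Mmp3 and Adamts1 lower at an unadjusted limma p below 0.05 (4.64% and 6.4% of all genes). Limma called none after adjustment, while DESeq2 called Timp2 higher and Mmp3 lower (adjusted p = 0.0237 each). Of the 4056 genes with a DESeq2 adjusted p, 0.666% were called higher and 2% lower. Cemip and Adamts1 are named after their values were seen. Mmp3, the stromelysin gene, had 544, 490.4 and 299.7 CPM in KO libraries 1, 2 and 3 and 1365, 609 and 987 CPM in WT libraries 1, 2 and 3. Timp2, which encodes a metalloproteinase inhibitor, had 668, 342 and 506 CPM in KO and 261, 283 and 259 CPM in WT. Neither gene overlapped between groups, and their log2 fold changes were −1.12 (SE 0.33) and 0.86 (SE 0.24). Mmp13, a collagenase gene, had 882 ± 196 CPM in KO and 544 ± 185 CPM in WT. Timp3, which encodes an inhibitor of aggrecanases, differed by 0.38 on the log2 scale (SE 0.35). The difference was 0.0092 without KO 1, 0.19 without WT 3 and 0.74 without KO 2 (limma adjusted p = 0.343), and it was 0.81 with KO 2 and WT 1 both left out (limma adjusted p = 0.380). The unadjusted limma p was below 0.05 in these last 2 settings. Timp3 shares 1733 exon bases with opposite-strand Syn3.

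Of 14 listed transcription regulators of these genes 10 had a row, 9 higher and 1 lower (51.4% of all genes were higher). Their median log2 fold change was 0.34, and none had an unadjusted limma p below 0.05. Neither limma nor DESeq2 called any of them, and DESeq2 gave Sox6 no adjusted p. Sox6, a partner of Sox9 in the activation of cartilage genes, had 55.7, 10.8 and 43.4 CPM in KO libraries 1, 2 and 3 and 22.6, 19.8 and 19.3 CPM in WT libraries 1, 2 and 3. KO 2 was the lowest of the 6 and KO 1 the highest, and the log2 fold change was 0.53 (SE 0.54). It was 1.24 without KO 2, where the unadjusted limma p was below 0.05 (limma adjusted p = 0.150), 0.0811 without KO 1 and 0.26 without KO 3. Trps1, Runx1 and Runx2 had 0.16 (SE 0.22), 0.11 (SE 0.28) and 0.01 (SE 0.28), and each of these 3 signs turned under at least 1 alternative.

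**Figure D5:**
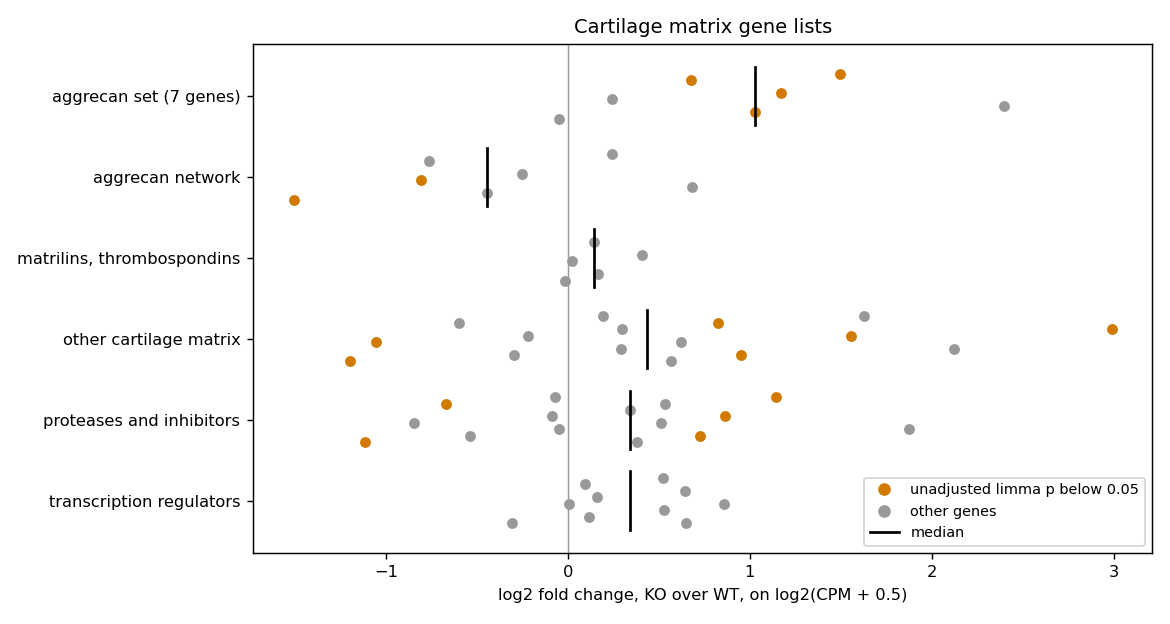
Log2 fold change (KO over WT) of every measured gene in the aggrecan set and in 5 lists of related genes, orange where the unadjusted limma p is below 0.05, with the median of each list as a black bar. Medians are 1.03 for the aggrecan set and −0.44 for its hyaluronan network partners.

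Genes outside the set with the profile most like that of Acan were found by the root mean square difference of centred log2 values over the 6 libraries, among 8691 genes with a mean of at least 10 CPM. They were Wdr35, Heatr5b, Rgs17, Ercc6 and Fam135a, at 0.16 to 0.27. Each had its highest level in KO 1 and a log2 fold change of 0.80 to 1.37, and none passed limma (adjusted p = 0.322 to 0.465). The peak in KO 1 and the direction follow from the search, which picks genes for their likeness to Acan. For Prg4 the nearest were Gstp1, Dap3, Srek1ip1, C1s1 and Ylpm1, at 0.06 to 0.10. In C1s1, a complement protease gene, the levels were 98.5, 67.6 and 64.8 CPM in KO libraries 1, 2 and 3. They were 79.8, 39.6 and 58.6 CPM in WT libraries 1, 2 and 3. WT 2 was lowest as in Prg4, a likeness for which the search picked it.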

How the data were processed

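The authors deposited 1 table with a signal per gene and library, which its name gives as TMM-normalized CPM of filtered genes. Dividing a library's values by what 1 read is worth gave whole reads for 100% of them (tolerance 0.001 reads). The sources used here give neither the filter nor the annotation, strand setting or role of each tool. Tools listed in the submitters' processing notes are HISAT2 2.1.0, cutadapt 1.18, StringTie 1.3.5, bcl2fastq and edgeR, with the build mm10. The design had assumed plain CPM. The header of the KO 3 column and the sample's title are unlike in 1 character. The number of unmapped columns was 0.

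KO and WT libraries (3 each) were compared with limma 3.58.1 (R 4.3.3, intensity trend) on log2(CPM + 0.5) over 10189 genes, two-sided, called at a Benjamini-Hochberg adjusted p below 0.05. The recovered reads were tested with edgeR 4.0.16 (quasi-likelihood), DESeq2 1.42.0 and limma-voom as alternatives. The procedure was tested on simulated data. Ratios to Prg4 used exact permutation (scipy 1.17.1), over 6 ratios because Matn1 has no row. Genes were matched to GENCODE M21 (mm10). Chi-square per degree of freedom between libraries of 1 genotype was 5.83 to 27.8, so all 6 were kept as separate libraries. The members, the lists and the tests were chosen with earlier results of these data known. Named genes were the members, the 4 genes of highest mean per list, the 5 nearest profiles to Acan and to Prg4, and opposite-strand partners of members, with exceptions named in the text, among them marker genes.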

Additional observations from a re-analysis of the deposited data

How the results depend on the processing

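The genotype comparison called 1 gene with limma. It called 2 with a pseudocount of 2, 10 without a trend, 4 with robust empirical Bayes, 2 with edgeR, 108 with DESeq2 (27 higher and 81 lower), 2 with KO 2 and WT 1 both left out, and 0 to 32 with 1 library left out. With the replicate number as a block it called 0. Same-numbered libraries did not deviate together (correlations 0.03, 0.08 and −0.06), so the number was not taken as a pairing, and KO 2 alone was most like the WT library of its own number. With 1 library left out, 6 to 7 of the 7 matrix genes were higher in KO and 1 to 3 had an unadjusted limma p below 0.05, against 4 with all libraries. That count was 1 without a trend and 2 with robust empirical Bayes. The cause of these shifts was not tested. No scaling moved the median of all genes by more than 0.0623 (log2), the shift with library totals.

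Acan, Hapln1, Comp, Lect1 and 3110079O15Rik kept their direction in each alternative that held them. Matn3, main value −0.05, was 0.0095 with library totals, 0.00905 with edgeR, 0.0245 with DESeq2, 0.18 with limma-voom and −0.38 to 0.20 with 1 library left out. Prg4 was −0.0237 to 0.507 with 1 library left out. Thbs2 was 0.0482 with library totals, 0.156 with quantile normalization, 0.0144 with array weights, 0.054 with KO 2 and WT 1 left out, and −0.17 to 0.12 with 1 library left out. Thbs4 was −0.0167 at a pseudocount of 2, −0.0041 with quantile normalization, −0.46 with edgeR, −0.43 with DESeq2, −0.12 with limma-voom and −0.925 to 0.621 with 1 library left out. Cilp was 0.0853 with edgeR, 0.11 with DESeq2 and −1.11 to 0.387 with 1 library left out. Runx2 was −0.0336 with limma-voom and −0.23 to 0.16 with 1 library left out. With 1 library left out Matn2 was −0.0281 to 0.316, Trps1 −0.000512 to 0.2995 and Runx1 −0.10 to 0.26.

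Over all alternatives, genes at an unadjusted p below 0.05 numbered 0 to 1 higher and 1 to 4 lower among aggrecan partners (0 and 2 in the main comparison), 2 to 5 and 1 to 2 among other matrix genes (4 and 2), and 1 to 5 and 1 to 3 among proteases and inhibitors (3 and 2). Among matrilins and thrombospondins they numbered 0 to 1 in each direction (0 and 0), and among regulators 0 to 1 higher and 0 lower (0 and 0). None of the 5 genes nearest to Acan has a mean of 20 CPM, so a filter at that level replaces all of them by its construction. Depth limits Matn3 and 3110079O15Rik most, with 7 to 24 and 0 to 46 reads per library.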
